A study of Mus musculus with 30 samples.

Results

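The 9 genes described here belong to the aryl hydrocarbon receptor (AHR) pathway: Ahr, its partner Arnt, the feedback regulators Ahrr and Tiparp, and the target genes Cyp1a1, Cyp1b1, Cyp1a2, Nqo1 and Aldh3a1. They were taken by symbol from a table of 55421 genes. All 9 were found and all 9 were among the 19868 genes with enough counts to be tested. Messenger RNA was sequenced from mouse E14 embryonic stem cells (XY, 129P2/Ola), grown on gelatin in serum with leukemia inhibitory factor and the inhibitors PD0325901 and CHIR-99021. There were 5 genotypes, each from 1 cell line, with 3 libraries untreated and 3 after 24 h of treatment, so 10 groups and 30 libraries.

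All 5 lines carry Tir1, a plant protein that directs the destruction of proteins fused to an auxin-inducible degron (AID) when auxin is added. The TIR1 line carries no degron fusion and received auxin alone. In the PDS5AB line the AID is on PDS5A and PDS5B, and in the WAPL line it is on WAPL. Both were given auxin alone. The other lines, PDS5AB-NIPBL and WAPL-NIPBL, have the same AID fusions, an FKBP degron on NIPBL and a Halo tag on RAD21, and were given auxin together with dTAG-13, the ligand of the FKBP degron. Auxin was indole-3-acetic acid at 500 µM in every treated group, and dTAG-13 was at 500 nM. PDS5A, PDS5B, WAPL and NIPBL regulate cohesin, the complex that extrudes chromatin loops. The degrons act on protein, so the mRNA levels of these genes are no check of depletion.

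AHR is a ligand-activated transcription factor. In the resting cell it is held in the cytoplasm by HSP90 and its cochaperones. A bound ligand, such as a dioxin or one of many indole compounds derived from tryptophan, sends it to the nucleus, where it pairs with ARNT and binds the xenobiotic response element, whose core is GCGTG. Cyp1a1 is the standard readout of this step, and AHRR and TIPARP are induced by the receptor and restrain it.

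Total counts ran from 19632704 to 45539021 per library, and the lowest Pearson's r of log2 counts scaled to library size (CPM) between replicates was 0.987. Libraries numbered 1 to 21 hold both PDS5AB groups and the untreated TIR1 group, those numbered 25 to 42 hold the other 3 degron lines, and those numbered 43 to 45 are the treated TIR1 group. The TIR1 treatment effect therefore runs between library sets, and set and treatment cannot be told apart there, whereas each degron line has both its groups in the same set. Levels set against TIR1 cross sets too, before treatment in every degron line but PDS5AB and after treatment in all 4, and so does each difference from the TIR1 treatment effect. The labels do not say whether replicates were separate cultures, so p-values measure only the spread between these libraries. Each line is also 1 cell line, so line and genotype cannot be told apart. The 9 pluripotency markers summed to between 4190 and 7070 CPM in every library, and the 8 fibroblast markers to between 16.5 and 42.5 CPM. Of the latter, 3 had a mean of at least 1 CPM in each group other than treated PDS5AB, where 4 did. Dcn was at 0 in all libraries of 6 groups, and Lum, Col3a1 and Postn in 1 or more groups.

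Promoter windows of Cyp1a1, Cyp1b1, Ahrr, Tiparp and Cyp1a2 are shown so that the presence or absence of the core motif can be read in known target and feedback genes of the receptor. Neither Ahr nor Aldh3a1 had a window. Each window runs from 250 bases before to 50 bases after the RefSeq transcription start (GRCm38.p6), is written 5′ to 3′ on the gene's strand, and has every GCGTG, read on either strand (CACGC on the printed strand), in capitals.
Cyp1a1: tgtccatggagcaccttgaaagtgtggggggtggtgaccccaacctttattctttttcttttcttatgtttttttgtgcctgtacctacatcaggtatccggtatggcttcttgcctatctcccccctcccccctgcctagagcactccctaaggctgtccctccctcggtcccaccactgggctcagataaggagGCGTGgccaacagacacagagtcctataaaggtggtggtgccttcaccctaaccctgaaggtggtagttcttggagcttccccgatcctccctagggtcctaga
Cyp1b1: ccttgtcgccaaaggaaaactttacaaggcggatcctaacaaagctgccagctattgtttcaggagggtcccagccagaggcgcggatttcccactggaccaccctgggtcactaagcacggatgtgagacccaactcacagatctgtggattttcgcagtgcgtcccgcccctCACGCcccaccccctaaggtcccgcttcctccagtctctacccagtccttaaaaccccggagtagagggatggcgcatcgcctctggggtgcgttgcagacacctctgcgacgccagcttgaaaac
Ahrr: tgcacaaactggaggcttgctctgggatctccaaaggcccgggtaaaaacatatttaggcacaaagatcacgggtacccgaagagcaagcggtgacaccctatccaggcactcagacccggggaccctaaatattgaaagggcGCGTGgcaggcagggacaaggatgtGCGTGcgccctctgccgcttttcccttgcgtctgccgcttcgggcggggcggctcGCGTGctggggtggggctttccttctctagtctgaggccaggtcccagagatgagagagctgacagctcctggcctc
Tiparp: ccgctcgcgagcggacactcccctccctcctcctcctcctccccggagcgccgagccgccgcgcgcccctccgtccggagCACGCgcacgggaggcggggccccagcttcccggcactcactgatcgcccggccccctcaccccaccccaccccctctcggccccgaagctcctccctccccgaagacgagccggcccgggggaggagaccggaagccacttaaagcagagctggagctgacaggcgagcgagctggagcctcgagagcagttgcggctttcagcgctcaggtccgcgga
Cyp1a2: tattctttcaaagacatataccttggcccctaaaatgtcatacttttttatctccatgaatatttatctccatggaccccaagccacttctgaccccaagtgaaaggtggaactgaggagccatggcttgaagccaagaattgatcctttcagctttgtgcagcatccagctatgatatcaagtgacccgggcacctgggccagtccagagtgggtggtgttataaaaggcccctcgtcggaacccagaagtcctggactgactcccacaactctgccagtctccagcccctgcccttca

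Cyp1a1 (chr9:57697363-57697662, plus strand), which encodes the enzyme most used as a reporter of AHR activity, held 1 core match, from -54 to -50. Its RefSeq start lies inside the gene model of the deposited table, which begins farther upstream. Cyp1b1 (chr17:79715012-79715311, minus strand), which encodes a related estrogen- and hydrocarbon-oxidising enzyme, held 1 on the opposite strand, from -76 to -72. Ahrr (chr13:74292282-74292581, minus strand), the receptor's repressor, held 3, of which the one from -27 to -23 was part of the longer form TNGCGTG. Tiparp (chr3:65528197-65528496, plus strand), an ADP-ribosyltransferase that marks AHR for removal, held 1 on the opposite strand, from -170 to -166. Cyp1a2 (chr9:57683606-57683905, minus strand), a close paralog of Cyp1a1, held none.

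The motif is common. GCGTG occurred on either strand in 32.4% of 32851 RefSeq windows of this length and occurred 2 or more times in 11.1%, and TNGCGTG occurred in 5.07%. Of the 9 genes, 7 had a window, and 5 of these held the core. Arnt held it from -29 to -25, and Nqo1 had no match. A match here is a match of letters, and windows without one say nothing about sites farther away.

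**Figure D1:**
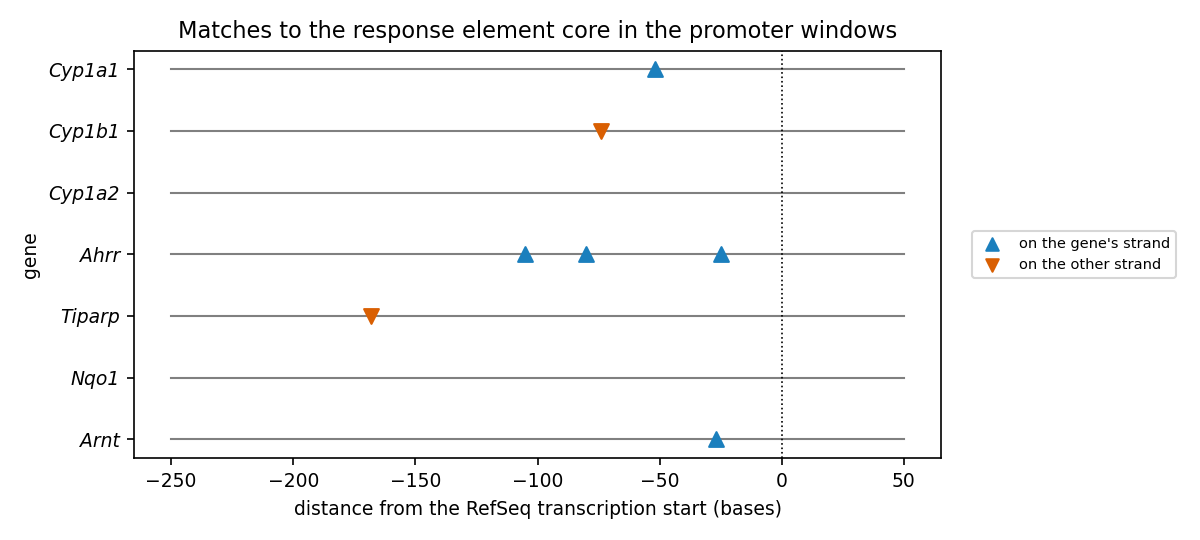
Positions of the 5-base response element core in the promoter windows of the 7 genes with a RefSeq entry, by distance from the transcription start in bases (x axis) and gene (y axis). Triangles pointing up are on the gene's strand and those pointing down on the other strand. Ahrr has 3 matches, and Cyp1a2 and Nqo1 have none.

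Ahr itself (ENSMUSG00000019256.17, chr12:35497974-35535038, minus strand, GRCm38) was present in every group, but its level differed between lines before any treatment. In untreated TIR1 cells the 3 libraries gave 14.4, 13.1 and 13 CPM, in WAPL cells 14.5, 12.8 and 12.9 and in WAPL-NIPBL cells 13, 14.7 and 12.2. The untreated PDS5AB libraries gave 5.23, 5.45 and 5.24 CPM, and the PDS5AB-NIPBL libraries gave 8.25, 7.57 and 6.39. Both lines with AID on PDS5A and PDS5B thus lay below the other lines with no overlap. Against TIR1 the log2 difference was -1.35 (SE 0.11, edgeR adjusted p = 2.14e-11) in PDS5AB and -0.87 (SE 0.10, adjusted p = 1.43e-07) in PDS5AB-NIPBL, while in WAPL it was -0.01 (95% interval -0.22 to 0.19) and in WAPL-NIPBL -0.02 (95% interval -0.23 to 0.19). PDS5AB-NIPBL also lay above PDS5AB, by 0.48 (adjusted p = 0.00124).

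Ahr was higher in treated than in untreated TIR1 cells and lower in treated than in untreated WAPL cells. Treated TIR1 libraries rose to 18.2, 17.9 and 18.5 CPM, a log2 change of 0.43 (SE 0.10, adjusted p = 0.0024). Treated WAPL libraries fell to 6.98, 7.95 and 8.01 CPM, a change of -0.81 (SE 0.10, adjusted p = 3.45e-07), which brought this line down to the level of the treated PDS5AB-NIPBL line (7.2, 7.73 and 7.56 CPM). In neither pair of groups did the untreated and treated libraries overlap. PDS5AB changed by 0.07 (95% interval -0.16 to 0.30) and PDS5AB-NIPBL by 0.02 (95% interval -0.20 to 0.24). WAPL-NIPBL went from a mean of 13.3 to 11.1 CPM, a change of -0.26 (SE 0.10, adjusted p = 0.116), which passed the threshold when replicate number within the library set was added as a block (-0.26, adjusted p = 0.0393).

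The Ahr changes of PDS5AB (-0.36, adjusted p = 0.0749) and PDS5AB-NIPBL (-0.41, adjusted p = 0.0764) did not differ from TIR1 beyond the threshold, and did with replicate number as a block within library set (-0.36, adjusted p = 0.0364, and -0.40, adjusted p = 0.0283). They also did so in some fits without 1 library: the first without TIR1 untreated replicate 1 (-0.44, adjusted p = 0.0444) or PDS5AB treated replicate 2 (-0.46, adjusted p = 0.0311), the second without PDS5AB-NIPBL untreated replicate 3 (-0.52, adjusted p = 0.0267). The WAPL-NIPBL change differed from TIR1 by -0.69 (SE 0.14, adjusted p = 0.00236). The WAPL response of Ahr differed from that of TIR1 by -1.23 (SE 0.14, adjusted p = 1.92e-07) and from that of PDS5AB by -0.88 (SE 0.15, adjusted p = 0.000178). With NIPBL also targeted the fall was smaller, by 0.55 (SE 0.14, adjusted p = 0.0211), but this last difference missed the threshold in the fit on the 4 groups alone (0.53, adjusted p = 0.0655), without a filter on low counts (0.54, adjusted p = 0.0903) and with any 1 of 4 libraries left out (adjusted p from 0.054 to 0.0921). Those were WAPL untreated replicate 1, WAPL treated replicate 1, WAPL-NIPBL untreated replicate 3 and WAPL-NIPBL treated replicate 2. After treatment the order of Ahr was TIR1 (18.2 ± 0.281 CPM, SD, n = 3), WAPL-NIPBL (11.1 ± 0.959), WAPL (7.65 ± 0.581), PDS5AB-NIPBL (7.49 ± 0.272) and PDS5AB (5.56 ± 0.616). Of the neighbours in that order only WAPL and PDS5AB-NIPBL did not differ (adjusted p = 0.862).

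Arnt (ENSMUSG00000015522.18, chr3:95434388-95497240, plus strand), the DNA-binding partner of AHR, was the steadiest of the 9. Its group means lay between 95.4 and 132 CPM. It rose in TIR1 cells, from 87.6, 100 and 98.3 to 124, 114 and 115 CPM, a log2 change of 0.30 (SE 0.08, adjusted p = 0.00981), and changed by between -0.02 and 0.08 in the degron lines, none of which passed the test. Before treatment Arnt lay above TIR1 in WAPL (0.29, adjusted p = 0.02), PDS5AB-NIPBL (0.47, adjusted p = 5.7e-05) and WAPL-NIPBL (0.35, adjusted p = 0.00193), the 3 lines whose libraries are of another set than those of untreated TIR1. In PDS5AB, of the same set, the difference was 0.06 (adjusted p = 0.66). The part of the library set was not tested. The WAPL call was lost without TIR1 untreated replicate 1 (0.24, adjusted p = 0.0842) or WAPL untreated replicate 2 (0.22, adjusted p = 0.124). Per length, Arnt stood well above its partner: in untreated TIR1 cells it had 11.9 CPM per kilobase of exon (FPKM) against 2.19 FPKM for Ahr. Of the treatment effects of Arnt, the differences from TIR1 were between -0.32 and -0.22 and none passed, but with replicate number as a block WAPL (-0.28, adjusted p = 0.0287) and PDS5AB-NIPBL (-0.32, adjusted p = 0.0241) did. With the block within library set PDS5AB (-0.22, adjusted p = 0.0118) and WAPL-NIPBL (-0.28, adjusted p = 0.00453) passed as well. After treatment Arnt in PDS5AB differed from TIR1 by -0.16 (adjusted p = 0.0937, and -0.17 with adjusted p = 0.0355 with the replicate block) and in PDS5AB-NIPBL by 0.15 (adjusted p = 0.157, and 0.0106 with the block within library set).

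**Figure D2:**
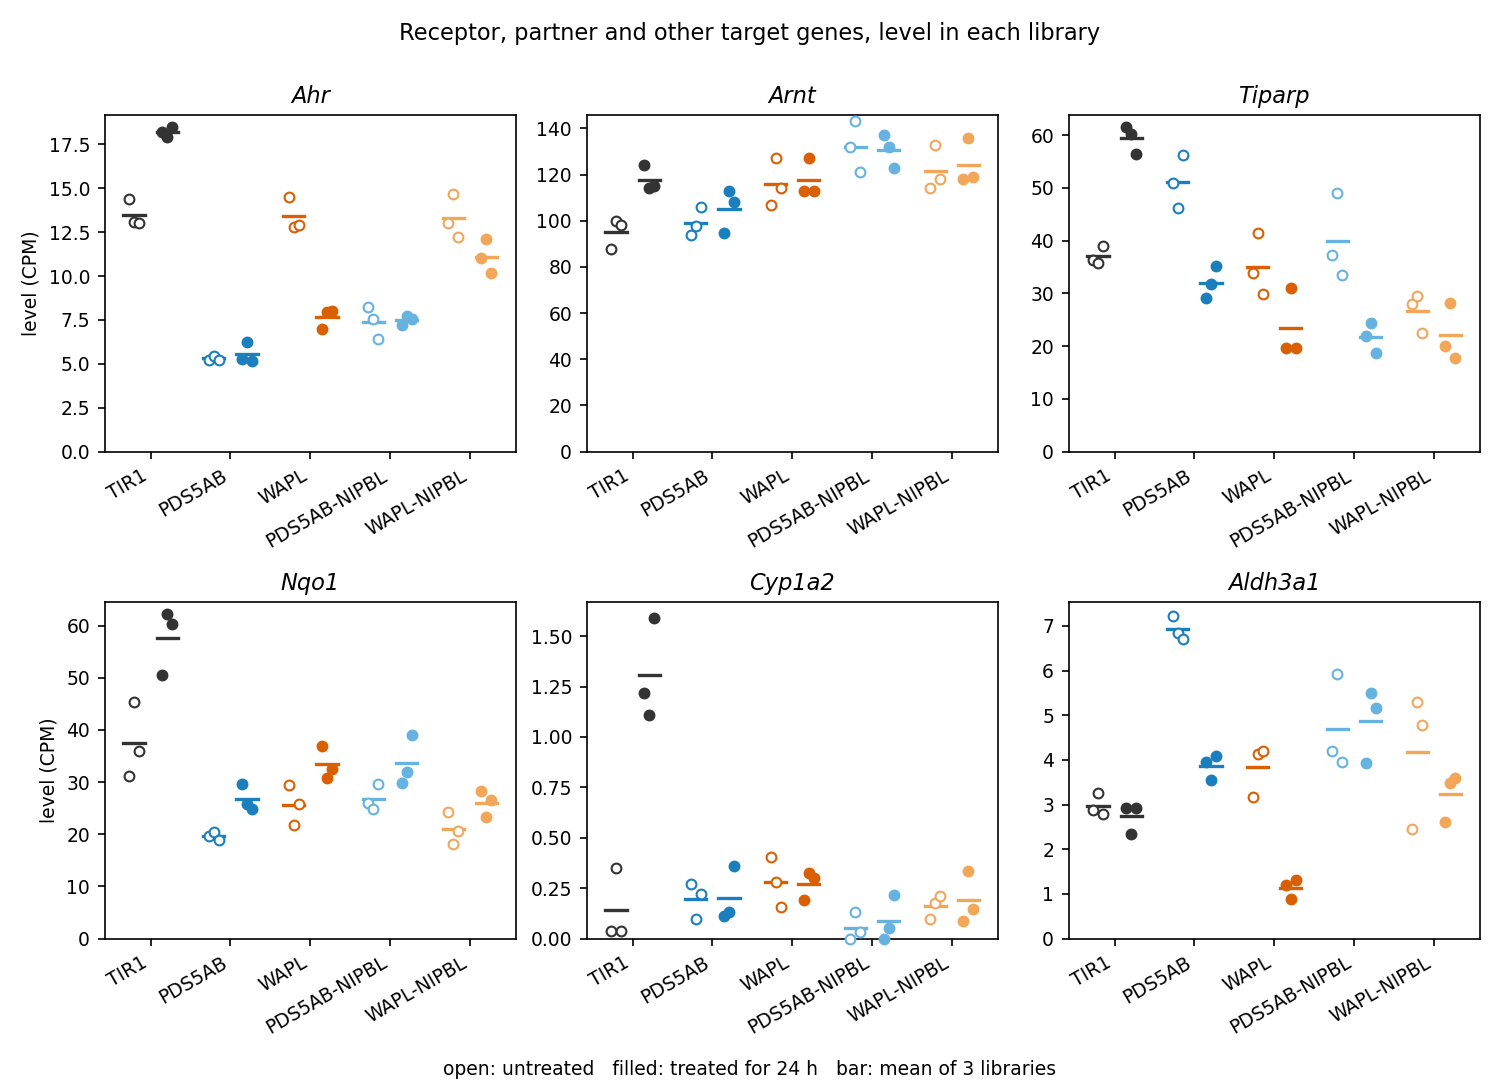
Level in CPM (y axis, from 0) of Ahr, Arnt, Tiparp, Nqo1, Cyp1a2 and Aldh3a1 in each of the 30 libraries, by line (x axis). Open points are untreated and filled points treated libraries, and bars are means of 3. Ahr starts near 13 CPM in 3 lines and near 5 or 7 CPM in the others, and Cyp1a2 is above 1 CPM only in treated TIR1 cells.

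Cyp1a1 (ENSMUSG00000032315.6, chr9:57687928-57703824, plus strand) rose in all 5 lines, and most in TIR1. Untreated TIR1 libraries held 0.478, 0.440 and 0.390 CPM, and treated ones 74.9, 59.7 and 65.1. The PDS5AB libraries went from 0.472, 0.694 and 0.414 to 7.57, 6.04 and 6.99 CPM. WAPL went from 1.08, 0.564 and 1.18 to 21.1, 21.4 and 22.7 CPM. Every treated library lay above every untreated one in each of these lines, and the 3 treated groups did not overlap each other.

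In the lines that also received dTAG-13, PDS5AB-NIPBL went from 0.682, 0.566 and 0.491 to 13.7, 12.5 and 19.6 CPM, and WAPL-NIPBL from 0.805, 0.846 and 0.873 to 23.7, 26.7 and 24.7 CPM. Replicate 3 of treated PDS5AB-NIPBL was the high one of its group. The log2 changes were 7.24 (SE 0.28, edgeR adjusted p = 9.22e-22) in TIR1, 3.71 (SE 0.25, adjusted p = 2.72e-14) in PDS5AB, 4.53 (SE 0.21, adjusted p = 1.38e-17) in WAPL, 4.72 (SE 0.25, adjusted p = 2.19e-16) in PDS5AB-NIPBL and 4.89 (SE 0.22, adjusted p = 7.64e-18) in WAPL-NIPBL. As folds these are 151, 13.1, 23.0, 26.3 and 29.6. In TIR1 cells Cyp1a1 had the fitted rise of rank 2 among 19868 genes, and its FPKM moved from above 14% of the tested genes to above 87.9% of them. In PDS5AB cells it had rank 23 and ended above 49.5%.

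Cyp1a1 levels were therefore unequal at the same dose of auxin. Treated PDS5AB cells had 10.3% of the level in treated TIR1 cells, PDS5AB-NIPBL 22.9%, WAPL 32.7% and WAPL-NIPBL 37.6%. The change was smaller than in TIR1 by a log2 difference of -3.54 (SE 0.37, adjusted p = 5.67e-08) in PDS5AB, -2.72 (SE 0.35, adjusted p = 4.9e-07) in WAPL, -2.52 (SE 0.38, adjusted p = 3.96e-05) in PDS5AB-NIPBL and -2.36 (SE 0.36, adjusted p = 5.06e-05) in WAPL-NIPBL. All 4 comparisons use the same TIR1 libraries.

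Among the degron lines the changes themselves were closer. WAPL minus PDS5AB was 0.82 (95% interval 0.16 to 1.48, adjusted p = 0.102), PDS5AB-NIPBL minus PDS5AB was 1.01 (0.29 to 1.73, adjusted p = 0.0671), WAPL-NIPBL minus WAPL was 0.36 (-0.25 to 0.97, adjusted p = 0.616) and WAPL-NIPBL minus PDS5AB-NIPBL was 0.17 (-0.51 to 0.85, adjusted p = 0.977). None passed over all genes, though PDS5AB-NIPBL minus PDS5AB did with the block within library set (1.02, adjusted p = 0.0492). The treated levels were better separated. They fell in the order TIR1 (66.6 ± 7.69 CPM), WAPL-NIPBL (25.1 ± 1.51), WAPL (21.7 ± 0.841), PDS5AB-NIPBL (15.2 ± 3.79) and PDS5AB (6.87 ± 0.771), and of these neighbours only WAPL-NIPBL and WAPL did not differ beyond the threshold (0.21, 95% interval -0.05 to 0.46, adjusted p = 0.243).

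Before treatment Cyp1a1 was low, with 10 to 35 counts per library. WAPL (0.942 ± 0.331 CPM) and WAPL-NIPBL (0.841 ± 0.0340) lay above TIR1 (0.436 ± 0.0440), by 1.10 (adjusted p = 0.0165) and 0.95 (adjusted p = 0.0283). The WAPL call was lost in the fit on the compared groups alone (1.10, adjusted p = 0.0511). Both calls were lost when any 1 of several libraries was left out: TIR1 untreated replicate 2 (1.11, adjusted p = 0.0511, and 0.96, adjusted p = 0.0655) or 3 (1.02, adjusted p = 0.0706, and 0.87, adjusted p = 0.0943) for both, WAPL untreated replicate 1 (0.98, adjusted p = 0.0677) or 3 (0.94, adjusted p = 0.0819) for the first, and WAPL-NIPBL untreated replicate 2 (0.95, adjusted p = 0.0711) or 3 (0.93, adjusted p = 0.0706) for the second.

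**Figure D3:**
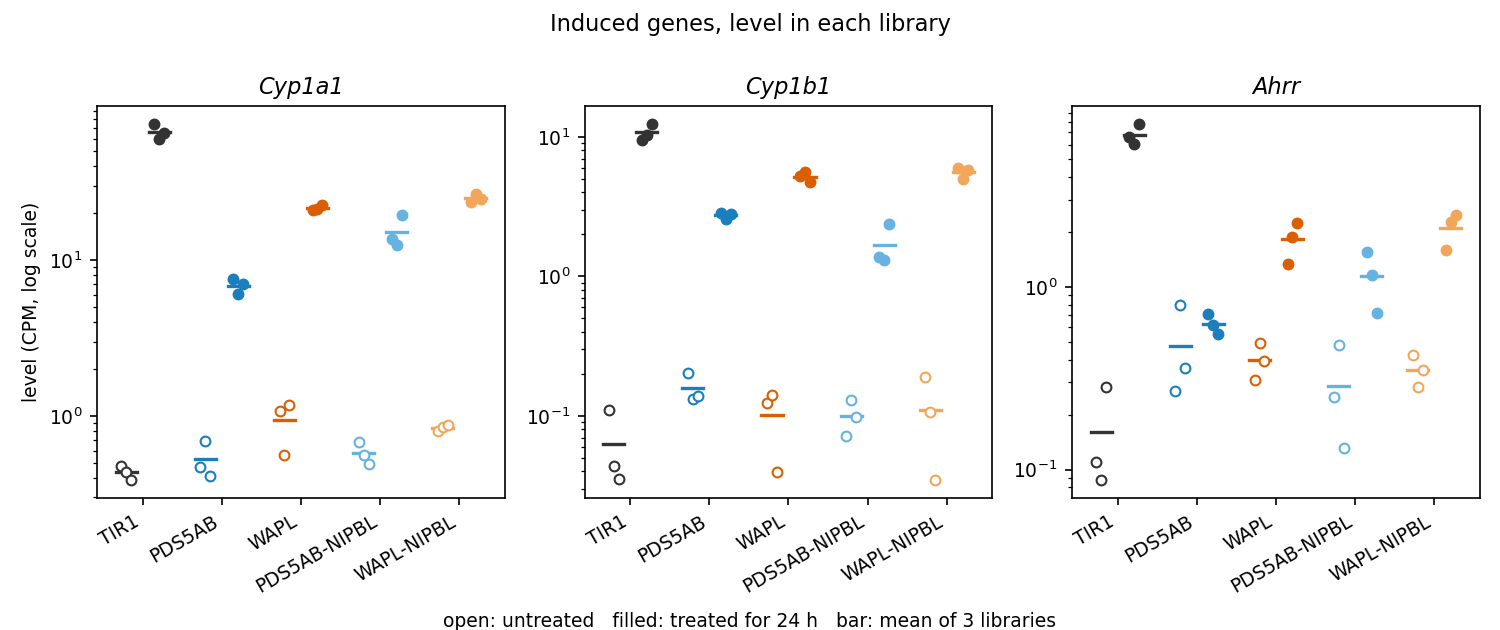
Level in CPM on a log scale (y axis) of Cyp1a1, Cyp1b1 and Ahrr in each library, by line (x axis). Open points are untreated and filled points treated libraries, and bars are means of 3. Cyp1a1 reaches 66.6 CPM in treated TIR1 cells and 6.87 CPM in treated PDS5AB cells, and Ahrr overlaps between untreated and treated only in the PDS5AB line.

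Cyp1b1 (ENSMUSG00000024087.4, chr17:79701537-79715061, minus strand) was almost silent in untreated cells, with 1 to 6 counts per library, and also rose in every line. The 3 untreated TIR1 libraries had 3, 1 and 1 counts and the treated ones 315, 454 and 469. From the summed counts, 5 against 1238, the scaled ratio was 168 (exact 95% interval 71.9 to 519, counting error only, edgeR adjusted p = 1.44e-16). In CPM, the treated TIR1 libraries held 9.58, 10.3 and 12.4, WAPL held 5.21, 5.57 and 4.75, WAPL-NIPBL 5.97, 4.99 and 5.80, PDS5AB 2.87, 2.58 and 2.78, and PDS5AB-NIPBL 1.37, 1.31 and 2.36. Replicate 3 was again the high library of the last group.

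The log2 change of Cyp1b1 was 4.10 (SE 0.37, adjusted p = 3.57e-12) in PDS5AB, 5.58 (SE 0.45, adjusted p = 1.68e-14) in WAPL and 5.70 (SE 0.47, adjusted p = 7.82e-14) in WAPL-NIPBL. In PDS5AB-NIPBL, with 2, 3 and 3 untreated counts, the ratio of summed counts was 17.8 (exact 95% interval 8.76 to 42.2, adjusted p = 1.45e-09). The change was smaller than in TIR1 in PDS5AB (adjusted p = 0.000302) and PDS5AB-NIPBL (adjusted p = 0.00523), and the test did not pass for WAPL (adjusted p = 0.094) or WAPL-NIPBL (adjusted p = 0.217).

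The order of treated levels was not the same for both genes. Cyp1a1 was higher in PDS5AB-NIPBL than in PDS5AB, by 1.16 on the log2 scale (adjusted p = 6.41e-08), whereas Cyp1b1 was lower there, by 0.67 (a log2 difference of -0.67, adjusted p = 0.00817). Per length, the ratio of Cyp1a1 to Cyp1b1 in treated libraries was 5.24 ± 0.311 (SD, n = 3) in PDS5AB, 8.85 ± 1.04 in WAPL, 9.49 ± 1.52 in WAPL-NIPBL, 13.2 ± 2.83 in TIR1 and 19.4 ± 1.86 in PDS5AB-NIPBL. The 17.3 to 21 of the PDS5AB-NIPBL libraries did not overlap the 4.91 to 5.52 of PDS5AB, nor any other group. This ratio was looked at after the levels were seen and was not tested.

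Cyp1a2 (ENSMUSG00000032310.4, chr9:57676937-57683703, minus strand), which lies beside Cyp1a1 with a start 14 kb away in the opposite orientation, rose in TIR1 cells and was not called in any degron line. Untreated TIR1 libraries had 1, 8 and 1 counts and treated ones 40, 49 and 60, or 1.22, 1.11 and 1.59 CPM. The log2 change was 3.28 (SE 0.68, adjusted p = 0.00019), and it was 5.02 (adjusted p = 5.8e-05) without TIR1 untreated replicate 2, the library with 8 counts. Treated TIR1 was the only group in which every library reached the minimum count of 10 set in the filter. Cyp1a2 was thus kept for testing mainly through the group in which it was high. The TIR1 change was also called without a filter on low counts.

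In the degron lines Cyp1a2 had 0 to 13 counts per library in both states, and no change passed. It was 0.04 (95% interval -1.36 to 1.45) in PDS5AB, -0.05 (-1.31 to 1.21) in WAPL and 0.25 (-1.27 to 1.77) in WAPL-NIPBL, so a change of about the TIR1 size lies outside these intervals, although a smaller one does not. PDS5AB-NIPBL had 4 counts in all before and 7 after treatment, and no fold is given. The difference from TIR1 passed for PDS5AB (-3.24, SE 0.97, adjusted p = 0.00989) and WAPL (-3.33, SE 0.92, adjusted p = 0.00621), and without the 8-count library these were -4.98 and -5.07. The PDS5AB difference was -3.98 without PDS5AB treated replicate 3, which held 11 counts. For WAPL-NIPBL it was -3.03 (SE 1.01, adjusted p = 0.0596), and -3.05 with adjusted p = 0.043 with replicate number as a block. Without the 8-count library the WAPL-NIPBL difference was -4.77 (adjusted p = 0.00994). It also passed with DESeq2 (-3.05, adjusted p = 0.0327), in the fit on the compared groups alone (-3.03, adjusted p = 0.0372) and without a filter on low counts (-3.05, adjusted p = 0.011).

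Ahrr (ENSMUSG00000021575.16, chr13:74211118-74292331, minus strand) rose strongly in TIR1, less in 3 degron lines and without a call in PDS5AB. TIR1 libraries went from 0.110, 0.0881 and 0.284 to 6.63, 6.02 and 7.80 CPM. PDS5AB libraries went from 0.270, 0.793 and 0.359 to 0.709, 0.621 and 0.555 CPM, so that the highest of the 6 was untreated and the groups overlapped. WAPL went from 0.309, 0.494 and 0.394 to 1.34, 1.88 and 2.24 CPM. Before treatment Ahrr was called higher in PDS5AB than in TIR1, although the untreated libraries of these lines overlapped. The call was lost without TIR1 untreated replicate 1 (1.24, adjusted p = 0.107) or 2 (1.23, adjusted p = 0.0983) or PDS5AB untreated replicate 2 (0.92, adjusted p = 0.228). Without TIR1 untreated replicate 3 the difference was 2.18 (adjusted p = 0.0103).

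In the lines given dTAG-13, Ahrr went from 0.251, 0.479 and 0.131 to 1.55, 1.16 and 0.716 CPM in PDS5AB-NIPBL and from 0.426, 0.282 and 0.349 to 1.6, 2.27 and 2.47 CPM in WAPL-NIPBL. Replicate 3 of treated PDS5AB-NIPBL, the high library for both Cyp1 genes, was the low one here. The log2 changes were 5.32 (SE 0.49, adjusted p = 4.72e-11) in TIR1, 0.41 (SE 0.39, 95% interval -0.38 to 1.20, adjusted p = 0.4) in PDS5AB, 2.20 (SE 0.37, adjusted p = 1.02e-05) in WAPL, 2.02 (SE 0.44, adjusted p = 0.000581) in PDS5AB-NIPBL and 2.61 (SE 0.39, adjusted p = 8.95e-06) in WAPL-NIPBL.

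All 4 degron lines differed from TIR1 in the Ahrr response, by -4.92 (SE 0.63, adjusted p = 2.53e-07) in PDS5AB, -3.13 (SE 0.61, adjusted p = 0.000198) in WAPL, -3.30 (SE 0.66, adjusted p = 0.00103) in PDS5AB-NIPBL and -2.72 (SE 0.63, adjusted p = 0.00472) in WAPL-NIPBL. Without TIR1 untreated replicate 3, the 0.284 CPM library, the TIR1 change was 6.03 (adjusted p = 9.56e-10) and these differences were -5.62, -3.83, -4.01 and -3.42. WAPL and PDS5AB differed by 1.79 (SE 0.53, adjusted p = 0.0219), a call lost without PDS5AB untreated replicate 2, the 0.793 CPM library (1.23, adjusted p = 0.181), or without WAPL untreated replicate 1 (1.64, adjusted p = 0.0564). PDS5AB-NIPBL minus PDS5AB was 1.61 (95% interval 0.42 to 2.80, adjusted p = 0.0722) and passed with the block within library set (1.6, adjusted p = 0.0412). Mean treated levels came in the same order of lines as for Cyp1a1, from 6.81 ± 0.906 CPM in TIR1 to 0.628 ± 0.0770 CPM in PDS5AB, but of the neighbours only TIR1 and WAPL-NIPBL differed beyond the threshold (1.67, adjusted p = 6.28e-06).

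Tiparp (ENSMUSG00000034640.9, chr3:65528410-65555518, plus strand) rose in TIR1 cells and fell in 3 degron lines. In TIR1 cells it rose from 36.3, 35.8 and 38.9 to 61.6, 60.3 and 56.5 CPM, a log2 change of 0.68 (SE 0.16, adjusted p = 0.00277). In PDS5AB cells it fell from 50.9, 46.2 and 56.3 to 29.1, 31.8 and 35.1 CPM, a change of -0.68 (SE 0.16, adjusted p = 0.000942). In PDS5AB-NIPBL cells it fell from 37.3, 49.1 and 33.4 to 22, 24.3 and 18.6 CPM, a change of -0.89 (SE 0.17, adjusted p = 0.00025). Untreated and treated libraries did not overlap in these 3 lines.

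The WAPL libraries of Tiparp did overlap, with 33.9, 41.5 and 29.8 CPM untreated and 19.6, 31.1 and 19.6 treated, where replicate 2 was the highest in both groups. The change was -0.58 (SE 0.16, adjusted p = 0.00682), and it missed the threshold without WAPL untreated replicate 2 (-0.43, adjusted p = 0.0688) or WAPL treated replicate 3 (-0.44, adjusted p = 0.0787). WAPL-NIPBL went from 28, 29.5 and 22.4 to 20.1, 28.2 and 17.8 CPM, a change of -0.27 (SE 0.17, adjusted p = 0.392), which with the block within library set was -0.28 (adjusted p = 0.00763).

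The Tiparp change differed from that of TIR1 in all 4 degron lines, by -1.36 (SE 0.23, adjusted p = 4.79e-05) in PDS5AB, -1.26 (SE 0.23, adjusted p = 0.000151) in WAPL, -1.57 (SE 0.23, adjusted p = 3.6e-05) in PDS5AB-NIPBL and -0.95 (SE 0.23, adjusted p = 0.00994) in WAPL-NIPBL. Between the degron lines none of the 4 differences tested passed, the largest being 0.62 (95% interval 0.13 to 1.10, adjusted p = 0.414) for WAPL-NIPBL minus PDS5AB-NIPBL, which passed with the block within library set (0.60, adjusted p = 0.000904), as did WAPL-NIPBL minus WAPL (0.31, adjusted p = 0.0442). The gene 4931440P22Rik overlaps Tiparp on the other strand, and the deposited counting set no strand option, but it held at most 42 counts in any library. Before treatment Tiparp lay above TIR1 in PDS5AB, by 0.47 (adjusted p = 0.0251), and below it in WAPL-NIPBL, by -0.48 (adjusted p = 0.03). The first call was lost without TIR1 untreated replicate 1 (0.45, adjusted p = 0.0789) or 2 (0.44, adjusted p = 0.076) or PDS5AB untreated replicate 3 (0.39, adjusted p = 0.106). The second was lost without any 1 TIR1 untreated library (adjusted p from 0.0555 to 0.088) or WAPL-NIPBL untreated replicate 3 (-0.36, adjusted p = 0.158).

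Nqo1 (ENSMUSG00000003849.8, chr8:107388225-107403206, minus strand) encodes a quinone reductase that answers to both AHR and the oxidative stress factor NRF2. It rose slightly in 3 lines. TIR1 libraries went from between 31.2 and 45.3 to between 50.5 and 62.3 CPM, a log2 change of 0.63 (SE 0.13, adjusted p = 0.000644). PDS5AB changed by 0.44 (SE 0.13, adjusted p = 0.00704) and WAPL by 0.37 (SE 0.13, adjusted p = 0.0249). The PDS5AB call was lost without PDS5AB treated replicate 1 (0.34, adjusted p = 0.051). The WAPL call was lost without WAPL treated replicate 1 (0.31, adjusted p = 0.0993), untreated replicate 2 (0.28, adjusted p = 0.142) or untreated replicate 3 (0.39, adjusted p = 0.053).

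The remaining changes of Nqo1 were 0.33 in PDS5AB-NIPBL (adjusted p = 0.079) and 0.31 in WAPL-NIPBL (adjusted p = 0.162), and with the block within library set both passed (adjusted p = 0.0137 and 0.0353). No difference between lines passed, and those from TIR1 lay between -0.32 and -0.19. What set the lines apart was the starting level. Untreated Nqo1 was 37.5 ± 7.21 CPM in TIR1 and between 19.7 and 26.9 CPM in the degron lines, and all 4 differences from TIR1 passed (adjusted p from 1.39e-06 to 0.00481). Those of WAPL and PDS5AB-NIPBL were lost without TIR1 untreated replicate 2, the 45.3 CPM library (-0.38, adjusted p = 0.0739, and -0.32, adjusted p = 0.0762), and that of WAPL also without WAPL untreated replicate 2 (-0.43, adjusted p = 0.0582).

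Aldh3a1 (ENSMUSG00000019102.10, chr11:61207537-61218421, plus strand), an aldehyde dehydrogenase induced by AHR ligands in liver cells, did not rise in any line. TIR1 libraries held 2.87, 3.26 and 2.80 CPM untreated and 2.92, 2.35 and 2.93 treated, a log2 change of -0.12 (95% interval -0.55 to 0.31). PDS5AB libraries fell from 7.22, 6.84 and 6.71 to 3.95, 3.56 and 4.08 CPM, a change of -0.84 (SE 0.19, adjusted p = 0.000685). WAPL libraries fell from 3.18, 4.13 and 4.21 to 1.19, 0.880 and 1.30 CPM, a change of -1.77 (SE 0.24, adjusted p = 5.32e-07). In both lines the groups did not overlap.

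The PDS5AB change differed from TIR1 by -0.72 (adjusted p = 0.0632), which passed with the replicate block (-0.72, adjusted p = 0.039). The other lines showed no call for Aldh3a1, with 0.06 in PDS5AB-NIPBL (95% interval -0.35 to 0.47) and -0.38 in WAPL-NIPBL (-0.80 to 0.04). Without WAPL-NIPBL untreated replicate 1 the latter was -0.62 and passed (adjusted p = 0.0467). The WAPL fall was larger than in TIR1 (-1.65, SE 0.32, adjusted p = 0.000262) and than in WAPL-NIPBL (a difference of 1.39, SE 0.31, adjusted p = 0.00555). It was also larger than in PDS5AB (-0.93, SE 0.31, adjusted p = 0.04), and the PDS5AB fall differed from PDS5AB-NIPBL (0.90, SE 0.28, adjusted p = 0.0377). The first of these last 2 calls was lost without any 1 of 8 libraries (adjusted p up to 0.141): untreated replicates 2 and 3 and treated replicates 1 and 3 of PDS5AB, and untreated replicates 2 and 3 and treated replicates 1 and 2 of WAPL. The second was lost without any 1 of 10 (adjusted p up to 0.0928), that is, all 6 PDS5AB libraries, untreated replicates 1 and 3 and treated replicates 2 and 3 of PDS5AB-NIPBL. PDS5AB cells started higher than TIR1 cells, by 1.22 (SE 0.20, adjusted p = 1.6e-05). PDS5AB-NIPBL cells also did, by 0.65 (SE 0.21, adjusted p = 0.0154), a call lost without TIR1 untreated replicate 3 (0.61, adjusted p = 0.0545) or PDS5AB-NIPBL untreated replicate 2 (0.47, adjusted p = 0.118). WAPL-NIPBL cells started at 0.51 above TIR1 (adjusted p = 0.0662, and 0.48 with adjusted p = 0.0221 with the block within library set, and 0.77 with adjusted p = 0.00406 without WAPL-NIPBL untreated replicate 1).

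Counted over the 9 genes, 8 rose and none fell in treated TIR1 cells, where 19.9% of the 19868 tested genes were called, 10.4% higher and 9.59% lower. In PDS5AB cells 3 rose and 2 fell (46% of all tested genes called, 25.8% higher and 20.2% lower). In WAPL cells 4 rose and 3 fell (32.8% called, 17% higher and 15.8% lower). With NIPBL also targeted, 3 rose and 1 fell in PDS5AB-NIPBL cells (19.5% called, 11.4% higher and 8.06% lower), and 3 rose and none fell in WAPL-NIPBL cells (8.57% called, 5.11% higher and 3.45% lower). With the block within library set the WAPL-NIPBL count was 6, since Nqo1 also rose and Tiparp and Ahr fell. The share of all genes called in that fit was not computed, so 8.57% is not its background. With replicate number as a block over all libraries, all genes called there went from 1702 to 2417. The median log2 change of the 9 genes was 0.68 in TIR1 (-0.01 over all tested genes), 0.25 in WAPL-NIPBL (0.01), 0.33 in PDS5AB-NIPBL (0), 0.08 in PDS5AB (0.04) and 0.02 in WAPL (0). The genes were chosen with these results known, so the counts are descriptions. The share called in PDS5AB was high throughout, and 5 of 9 there is near that background.

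Before treatment 5 of the 9 genes differed from TIR1 in PDS5AB, 3 higher and 2 lower (32% called, 15.5% higher and 16.5% lower), and 3 in WAPL, 2 higher and 1 lower (14% called, 6.62% higher and 7.39% lower). There were 4 in PDS5AB-NIPBL, 2 each way (34.3% called, 16.5% higher and 17.8% lower), and 4 in WAPL-NIPBL, 2 each way (28% called, 13.4% higher and 14.6% lower). After treatment 8 differed in PDS5AB, 7 of them lower than in TIR1 (59.2% called, 31.1% higher and 28.1% lower), and 8 in WAPL, all lower (39.7% called, 19.9% higher and 19.8% lower). There were 8 in PDS5AB-NIPBL, 7 of them lower (37.7% called, 19.4% higher and 18.3% lower), and 7 in WAPL-NIPBL, all lower (31% called, 15.5% higher and 15.4% lower).

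Relative to TIR1, the treatment change was smaller or more negative wherever it was called. That was so in 5 genes for PDS5AB (26.3% called, 13.9% higher and 12.4% lower) and 6 for WAPL (20.7% called, 9.86% higher and 10.9% lower). It was so in 4 for PDS5AB-NIPBL (10.1% called, 5.28% higher and 4.81% lower) and 4 for WAPL-NIPBL (7.04% called, 3.1% higher and 3.94% lower). With the block within library set the PDS5AB count was 8, as Ahr, Arnt and Aldh3a1 also passed. Calls were gained in the other lines too: Arnt for WAPL, Ahr and Arnt for PDS5AB-NIPBL, and Cyp1a2 and Arnt for WAPL-NIPBL. The shares of all genes called in that fit were not computed, so the shares above are not their background.

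Of the degron lines set against each other, WAPL minus PDS5AB gave 1 higher and 2 lower (12.5% called, 5.11% higher and 7.38% lower), and PDS5AB-NIPBL minus PDS5AB gave 1 higher (9.46% called, 4.97% higher and 4.48% lower). WAPL-NIPBL minus WAPL gave 2 higher (5.19% called, 3.03% higher and 2.16% lower). WAPL-NIPBL minus PDS5AB-NIPBL gave none in the main edgeR fit (0.362% called, 0.0956% higher and 0.267% lower) and none by DESeq2, with Cyp1b1 and Tiparp at unadjusted edgeR p of 0.0327 and 0.0142. Tiparp passed there without a filter on low counts (0.62, adjusted p = 0.00365) and with the block within library set (0.60, adjusted p = 0.000904). The PDS5AB-NIPBL minus PDS5AB count was 3 with the block within library set, with DESeq2 and without a filter on low counts. The shares of all genes called in those fits were not computed.

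**Figure D4:**
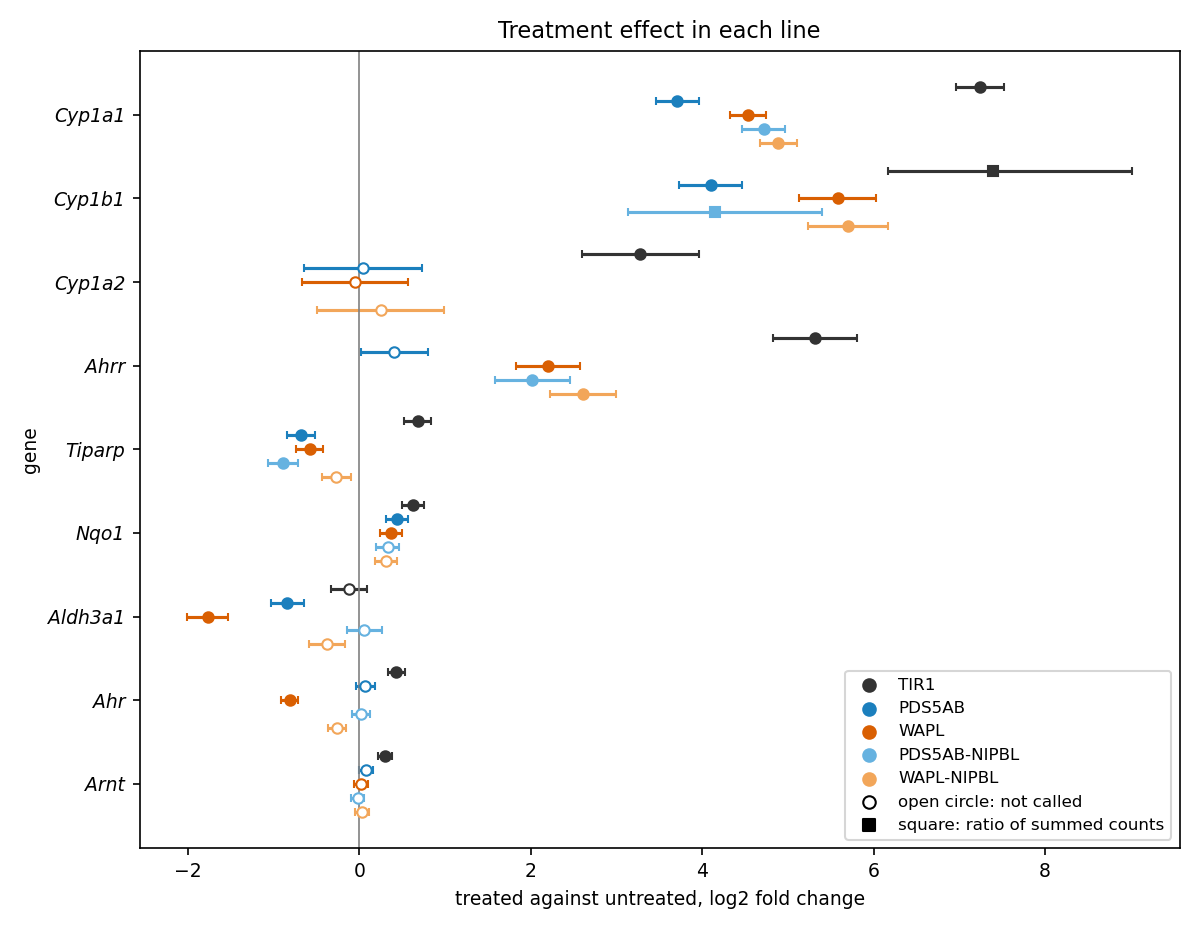
Log2 fold change of treated against untreated cells (x axis) for the 9 genes (y axis) in the 5 lines (colours). Circles are fitted values with 1 SE, filled where called. Squares are ratios of summed counts with exact 95% intervals for Cyp1b1 in TIR1 and PDS5AB-NIPBL, and Cyp1a2 in PDS5AB-NIPBL is left out for its low counts. In Cyp1a1 and Ahrr the TIR1 value lies to the right of all others, at 7.24 and 5.32, and Tiparp lies right of 0 in TIR1 and left of it in the other lines.

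Set side by side, the mean treated levels of Ahr and Cyp1a1 came in the same order of lines, although WAPL and PDS5AB-NIPBL had nearly equal Ahr. Treated Ahr was 30.6% of the TIR1 level in PDS5AB, 41.2% in PDS5AB-NIPBL, 42.1% in WAPL and 61.2% in WAPL-NIPBL. Cyp1a1 was lower still, and its ratio to Ahr in CPM was 1.25 ± 0.254 in PDS5AB, 2.03 ± 0.5 in PDS5AB-NIPBL, 2.26 ± 0.142 in WAPL-NIPBL, 2.85 ± 0.168 in WAPL and 3.66 ± 0.408 in TIR1 (SD, n = 3). Untreated means did not share an order: untreated TIR1 had the highest mean of Ahr and the lowest of Cyp1a1. These ranks are not firm, as TIR1 did not differ from WAPL in Ahr (edgeR adjusted p = 0.958) or from PDS5AB in Cyp1a1 (adjusted p = 0.624). The comparison of orders rests on 5 lines and no test of it was run, and whether the level of the receptor bears on the induction was not tested.

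**Figure D5:**
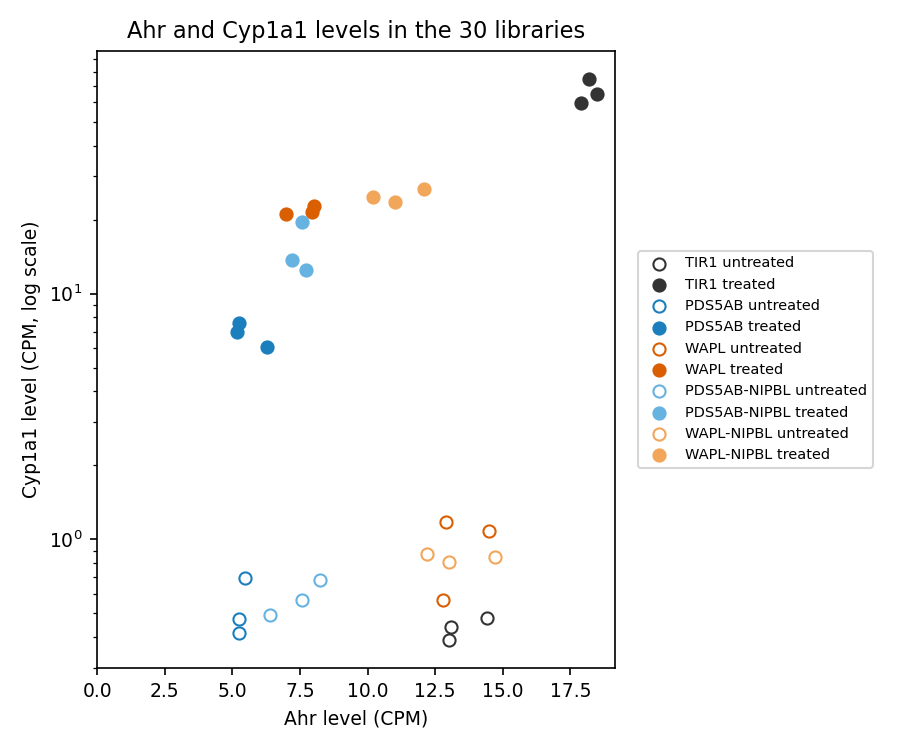
Level of Ahr (x axis, CPM) and of Cyp1a1 (y axis, CPM on a log scale) in the 30 libraries, coloured by line, open for untreated and filled for treated. Treated TIR1 libraries sit at 17.9 to 18.5 CPM of Ahr and 59.7 to 74.9 CPM of Cyp1a1, and treated PDS5AB libraries at 5.16 to 6.27 and 6.04 to 7.57 CPM.

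Summed markers of other cell states also differed between untreated and treated libraries, as descriptions with no test. The summed pluripotency markers were 6200 to 6630 CPM in treated TIR1 libraries and 4190 to 4550 in treated PDS5AB, 4960 to 5170 in treated WAPL, 5600 to 5960 in treated PDS5AB-NIPBL and 5340 to 5510 in treated WAPL-NIPBL, against 6340 to 7070 in untreated libraries, with all 9 markers above 1 CPM in every group. The 5 primitive endoderm markers summed to 7.37 to 7.97 CPM untreated and 9.72 to 11 CPM treated in TIR1, 23.6 to 26.3 and 58 to 70.6 in PDS5AB, 9.8 to 12.7 and 36.7 to 52.2 in WAPL, 5.39 to 5.87 and 13.6 to 15.3 in WAPL-NIPBL, and 10 to 12.4 and 29.7 to 35.1 in PDS5AB-NIPBL. The 5 trophoblast markers went from 82.5 to 90.9 untreated to 131 to 138 CPM treated in TIR1, and were at 58.7 to 99.1 CPM in untreated and 26.9 to 46 CPM in treated degron lines. The 4 neural markers summed to 70.8 to 76 CPM untreated and 63.9 to 74.3 treated in TIR1, 59.2 to 77 and 85.3 to 104 in PDS5AB, 69.3 to 82.3 and 76.6 to 90.4 in WAPL, 83.7 to 93.4 and 98.1 to 109 in WAPL-NIPBL, and 63 to 88.2 and 107 to 128 in PDS5AB-NIPBL. The groups overlapped in TIR1 and WAPL and not in the others. The 4 mesoderm markers summed to 7.44 to 8.08 CPM untreated and 10.5 to 12.1 treated in TIR1, 4.03 to 5.87 and 4.9 to 6.45 in PDS5AB, 7.12 to 9.01 and 10.6 to 12.5 in WAPL, 10.6 to 12.8 and 14.4 to 20.8 in WAPL-NIPBL, and 7.57 to 10.3 and 9.45 to 13 in PDS5AB-NIPBL. The 8 fibroblast markers went from 27.4 to 30.1 CPM up to 40.8 to 42.5 in PDS5AB and from 23.9 to 24.9 down to 16.5 to 19.2 in WAPL. In the other lines they lay between 19.6 and 31.4 CPM. Their part in the AHR gene changes was not tested, and in bulk RNA a change per cell and a change in the share of cells cannot be told apart.

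Around the receptor, 13 genes of the AHR complex, its bHLH partners and coregulators were all tested. In TIR1 4 rose and none fell (median 0.18), where 10.4% of all tested genes rose and 9.59% fell. In PDS5AB 4 rose and 3 fell (0.04), beside 25.8% and 20.2% of all genes, and in WAPL 3 rose and 5 fell (-0.05), beside 17% and 15.8%. In PDS5AB-NIPBL 2 rose and 2 fell (-0.03), beside 11.4% and 8.06%, and in WAPL-NIPBL 2 fell (-0.11), beside 3.45%. Nrip1, a nuclear receptor corepressor, rose in TIR1 from 16.7 to 29.7 CPM (0.83, SE 0.15, adjusted p = 0.000173) and also in PDS5AB (0.92, adjusted p = 6.91e-06), WAPL (0.69, adjusted p = 0.000435) and PDS5AB-NIPBL (0.51, adjusted p = 0.0139). Hsp90aa1, the chaperone that holds AHR, fell in PDS5AB from 3280 to 2230 CPM (-0.56, SE 0.08, adjusted p = 1.03e-06), in WAPL (-0.45, adjusted p = 4.48e-05), in PDS5AB-NIPBL (-0.25, adjusted p = 0.0235) and in WAPL-NIPBL (-0.26, adjusted p = 0.0363). Ncoa2, a coactivator, rose in TIR1 (0.39, adjusted p = 0.00289), PDS5AB (0.23, adjusted p = 0.0399), WAPL (0.56, adjusted p = 1.57e-05) and PDS5AB-NIPBL (0.32, adjusted p = 0.0118).

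Of 18 other genes reported to answer to AHR in some tissue, 9 were tested. In TIR1 1 rose and 1 fell (median 0.12), where 19.9% of all tested genes were called. In PDS5AB 5 rose and 1 fell (0.23), beside 46% of all genes called, and in WAPL 2 rose and 1 fell (0.04), beside 32.8%. In PDS5AB-NIPBL 1 rose and 1 fell (-0.04), beside 19.5%, and in WAPL-NIPBL 1 rose and 1 fell (-0.08), beside 8.57%. In TIR1, WAPL and PDS5AB-NIPBL these counts are near the background. Ptgs2, the inducible cyclooxygenase, rose in TIR1 from 0.301 to 1.27 CPM (2.08, SE 0.48, adjusted p = 0.00129), in PDS5AB from 0.791 to 4.39 CPM (2.47, SE 0.35, adjusted p = 1.12e-06) and in PDS5AB-NIPBL (1.6, SE 0.43, adjusted p = 0.00605). Cyp2s1, a P450 with AHR-responsive regulation, rose in PDS5AB from 15.7 to 53.7 CPM (1.77, SE 0.17, adjusted p = 1.86e-09). Slc7a5, an amino acid transporter, fell in TIR1 (-0.35, adjusted p = 0.00496), PDS5AB (-0.63, adjusted p = 1.08e-06), WAPL (-0.99, adjusted p = 6.18e-10), PDS5AB-NIPBL (-0.34, adjusted p = 0.00655) and WAPL-NIPBL (-0.33, adjusted p = 0.0139).

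The wider P450 family was also counted. Of 91 other Cyp genes 37 were tested. In TIR1 7 rose and 2 fell (median 0.13), where 10.4% of all tested genes rose, and in PDS5AB 19 rose and 1 fell (median 0.79), where 25.8% rose. In the 3 other degron lines 6 rose in each, beside 17% of all genes for WAPL, 5.11% for WAPL-NIPBL and 11.4% for PDS5AB-NIPBL, and 2, none and 2 fell. Cyp19a1, the aromatase, rose in PDS5AB from 0.194 to 2.21 CPM (3.46, SE 0.41, adjusted p = 1.08e-08). It also rose in WAPL (2.78, adjusted p = 1.08e-05) and in WAPL-NIPBL (adjusted p = 0.0346), where counts were few and their ratio was 5.48 (95% counting interval 1.61 to 28.9). Cyp46a1, a cholesterol hydroxylase, rose in PDS5AB from 0.273 to 2.46 CPM (3.16, SE 0.42, adjusted p = 1.04e-07), and its changes in the other lines, from 0.06 to 0.89, did not pass. Cyp2c70 rose in TIR1 (1.42, SE 0.27, adjusted p = 0.00024), PDS5AB (1.43, adjusted p = 2.14e-05), WAPL (1.34, adjusted p = 4.43e-05), PDS5AB-NIPBL (1.84, adjusted p = 4.75e-06) and WAPL-NIPBL (1.81, adjusted p = 2.1e-05). Of those that fell, Cyp2c69 changed in TIR1 by -2.35 (SE 0.51, adjusted p = 0.00058) and Cyp2ab1 in WAPL by -1.67 (SE 0.25, adjusted p = 4.02e-06). Cyp2j13 fell in PDS5AB-NIPBL (adjusted p = 0.0462), where counts were few and their ratio was 0.18 (95% counting interval 0.0456 to 0.518). Only 2 of 6 genes of the other xenobiotic receptors, PXR and CAR, were tested, and neither was called in any line.

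Many NRF2 genes, of the pathway that shares Nqo1 with AHR, rose in TIR1 (8 of 13 up and 1 down, median 0.28) and in PDS5AB (8 up and 1 down, 0.34), where 10.4% and 25.8% of all tested genes rose. In WAPL 2 were up (0.09, beside 17% of all genes), in PDS5AB-NIPBL 5 (0.18, beside 11.4%) and in WAPL-NIPBL 1 (0.09, beside 5.11%), and none was down. Whether these counts differ between lines was not tested. Srxn1, which repairs oxidised peroxiredoxins, rose in TIR1 (0.45, SE 0.08, adjusted p = 8.54e-05), PDS5AB (0.81, SE 0.08, adjusted p = 8.54e-10) and PDS5AB-NIPBL (0.33, adjusted p = 0.00238). Slc7a11, the 1 that fell in TIR1, went from 8.1 to 2.22 CPM (-1.9, SE 0.53, adjusted p = 0.0116). That was the largest called change of the list in TIR1. Of 12 genes of tryptophan and indole metabolism 7 were tested, with 1 up and 1 down in TIR1 (19.9% of all tested genes called), 2 up and 2 down in PDS5AB (46%), 1 up and 2 down in WAPL (32.8%), 1 up and 1 down in PDS5AB-NIPBL (19.5%) and 1 up in WAPL-NIPBL (8.57%). Kyat1, a kynurenine aminotransferase, rose in TIR1 from 5.97 to 7.99 CPM (0.42, SE 0.13, adjusted p = 0.0173) and in PDS5AB from 6 to 8.68 CPM (0.53, SE 0.12, adjusted p = 0.000751). Kyat3, of the same enzyme family, fell in PDS5AB from 23.8 to 11.7 CPM (-1.02, SE 0.12, adjusted p = 3.07e-08) and in WAPL (-0.32, adjusted p = 0.0257). Maob, a monoamine oxidase, rose in PDS5AB from 0.647 to 2.69 CPM (adjusted p = 3.04e-06) and in WAPL from 0.0953 to 0.366 CPM (adjusted p = 0.0042). It was called lower in treated TIR1 cells, from 0.0889 CPM to 0 (adjusted p = 0.00641). Counts there were few, and their ratio was 0 (95% counting interval 0 to 0.472).

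Candidates were the 12934 genes averaging 50 or more counts. Among the profiles most like that of Cyp1a1 over the 30 libraries were those of 2510009E07Rik (Pearson's r of log2 CPM 0.907), Atp10d (0.904), Rragd (0.874) and Exph5 (0.863). By Spearman's rho they were S1pr1 (0.899), Sp5 (0.879), Atp10d (0.873), Smox (0.872) and Fam53b (0.867). The libraries share their lines and treatment, so these values describe the 2 states of 5 lines and carry no p. None of these 8 genes repeated the order of treated Cyp1a1. Mean 2510009E07Rik was 45.1 CPM in treated TIR1 cells, below all 4 treated degron groups (47.7 to 52.2 CPM). S1pr1, a sphingosine-1-phosphate receptor, went from 2.99 to 13.2 CPM in TIR1 and reached 18.9 CPM in treated WAPL cells.

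The profiles most like that of Tiparp were those of Oxr1 (Pearson's r 0.886), Picalm (0.865), Nbr1 (0.856), Chic1 (0.856) and Ncoa1 (0.854). By Spearman's rho Oxr1 (0.935) and Picalm (0.878) were again first and second, followed by Vps35 (0.875), Bach2 (0.875) and Trim24 (0.874). Bach2, a transcriptional repressor, ranked 19th by Pearson's r (0.804). Its group means were 17.3 and 26.4 CPM in untreated and treated TIR1 cells, 17.4 and 10.5 in PDS5AB, 15.6 and 5.49 in WAPL, 15.9 and 9.17 in PDS5AB-NIPBL and 13.3 and 4.94 in WAPL-NIPBL. Like Tiparp it was higher in treated TIR1 cells, but its ratio of treated to untreated was lowest in the WAPL lines, and that of Tiparp in PDS5AB-NIPBL.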

How the data were processed

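Polyadenylated RNA of 30 libraries was compared. The authors deposited raw fragment counts per gene, made with featureCounts 2.0.1 on GENCODE vM23 gene models (GRCm38), per the file headers. The recorded command has no strand option and none for multi-mapped fragments, so reads of overlapping genes are not told apart by strand. STAR 2.7.7a and cutadapt are named in the submitters' processing notes. Gene lengths of the same table were used for FPKM.

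Counts were tested with edgeR 4.0.16 (R 4.3.3): filterByExpr with minimum count 10, TMM factors (0.95 to 1.13), 1 mean for each of 10 groups, 20 residual degrees of freedom, the quasi-likelihood test and Benjamini-Hochberg adjustment over 19868 genes. The threshold for a call was an adjusted p of 0.05. CPM is TMM-scaled. Intervals are 95%, and SEs come from the fitted dispersions. Where a group had 3 counts or fewer in every library, a ratio of summed counts with an exact binomial interval was given in place of the fitted change. On simulated counts for TIR1, with 18970 genes, the test recovered 73% of 2-fold and 98% of 4-fold changes. The 9 genes and all companion lists were chosen with earlier results of these data known, and the text names all 9. Each companion gene named was among the 3 largest called changes of its list in at least 1 line. Its changes in other lines are given in part, also where they were not among the 3 largest, and not every such gene is named. The results were recomputed with DESeq2 1.42.0, RLE normalization, no filter, a 2-fold minimum, the compared groups alone, a replicate block and each library left out. Same-numbered untreated and treated libraries deviated together in all 12 pairs of the degron lines (r from 0.109 to 0.333), not in TIR1 (r from -0.0102 to 0.0574), so the block is printed beside calls in the text that it changes. A block within library set, and the 12 comparisons among degron lines that place neighbouring levels, were chosen after seeing the data. A further gene with a profile like that of Cyp1a1 is not reported here.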

Additional observations from a re-analysis of the deposited data

Results flagged for a closer look

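The treatment effects below differed between lines by edgeR's test of the difference itself (4 groups of 3 libraries, adjusted over all genes). They share the TIR1 libraries where TIR1 is named. Their adjusted p stand in the report.

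Against TIR1, Cyp1a1 differed by -3.54 (PDS5AB), -2.72 (WAPL), -2.52 (PDS5AB-NIPBL) and -2.36 (WAPL-NIPBL) on the log2 scale. Ahrr differed by -4.92, -3.13, -3.30 and -2.72 in the same order of lines, and Tiparp by -1.36, -1.26, -1.57 and -0.95. Cyp1a2 differed by -3.24 in PDS5AB and -3.33 in WAPL. Cyp1b1, whose untreated TIR1 counts were 3, 1 and 1, differed in PDS5AB (adjusted p = 0.000302) and PDS5AB-NIPBL (adjusted p = 0.00523). Ahr differed by -1.23 in WAPL and -0.69 in WAPL-NIPBL, and Aldh3a1 by -1.65 in WAPL.

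Between degron lines, Ahrr differed by 1.79 (WAPL minus PDS5AB). Ahr differed by -0.88 (WAPL minus PDS5AB) and 0.55 (WAPL-NIPBL minus WAPL). Aldh3a1 differed by -0.93 (WAPL minus PDS5AB), 0.90 (PDS5AB-NIPBL minus PDS5AB) and 1.39 (WAPL-NIPBL minus WAPL).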

How the results depend on the processing

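Of 321 counts of called genes under an alternative, 281 stayed within 1.5 times the reported count, and of 1436 values of called genes 99 lost the call and none changed sign. Of 1433 values of results that were not called, 57 gained a call, and 75 changed sign, none of them with a call. With a 2-fold minimum the counts were 4 for TIR1, 2 for PDS5AB and 4 for WAPL. Effect differences then gave 2 for WAPL-NIPBL minus TIR1, 1 for WAPL minus PDS5AB, 0 for PDS5AB-NIPBL minus PDS5AB and 1 for WAPL-NIPBL minus WAPL, and untreated levels against TIR1 gave 3 for PDS5AB, 1 for WAPL, 0 for PDS5AB-NIPBL and 0 for WAPL-NIPBL. Without the filter, PDS5AB-NIPBL minus PDS5AB gave 3, WAPL-NIPBL minus WAPL 1 and WAPL-NIPBL minus PDS5AB-NIPBL 1. In the fit on the compared groups alone WAPL-NIPBL minus WAPL gave 1, and with DESeq2 PDS5AB-NIPBL minus PDS5AB gave 3. A replicate block within library set gave 6 for WAPL-NIPBL treatment, 8 for PDS5AB minus TIR1, 3 for PDS5AB-NIPBL minus PDS5AB and 1 for WAPL-NIPBL minus PDS5AB-NIPBL. The cause was not tested beyond what each setting itself alters. The planned block over all libraries moved no reported count by over 1.5 times. Of the alternatives, the number of all genes called was computed for that block alone. Leaving out 1 library gave 1 to 2 for WAPL-NIPBL minus WAPL, 0 to 2 for PDS5AB-NIPBL minus PDS5AB and 1 to 3 for WAPL minus PDS5AB, and for untreated levels against TIR1 3 to 5 for PDS5AB, 1 to 2 for WAPL and 2 to 5 for WAPL-NIPBL.

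Depth limits Cyp1a2, Cyp1b1 and Ahrr most, with between 0 and 24 counts in each untreated library, and Cyp1a2 in treated degron lines (0 to 11 counts). The design has 1 cell line per genotype and a TIR1 effect that crosses library sets.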
